A study of Mus musculus with 7 samples.

Results

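The genes described here code for the DNA replication machinery and for the G1/S cyclins and cyclin-dependent kinases, in satellite cells of geriatric and young mice. They were taken by name from a list of 43 genes, each matched to the probes that carried that gene name on the array. All 43 were present, on 55 of the 55681 probes other than controls, and 40 of the 43 could be tested among 27390 tested features. Satellite cells are the resident stem cells of skeletal muscle. They were sorted by flow cytometry from dissociated, unchallenged muscle of male C57BL/6 mice, keeping cells with integrin α7 and CD34 and removing cells with CD31, CD45, CD11b or Sca1, and their RNA was amplified before hybridisation to 1-colour Agilent arrays. The geriatric group had 4 arrays, from mice aged 28, 28, 29 and 30 months, and the young group had 3, from mice aged 2, 2 and 3 months. No mouse carried a labelled genetic change or treatment, so the groups differed in labelled age alone. Geriatric replicates 1 and 2 shared a sample name in their descriptions, correlated at r = 0.988, and agreed within 2 combined errors at 94.8% of the probes, where the 20 other pairs of arrays did so at 58.1% to 65.6%. The titles of geriatric replicates 1 and 2 call them biological replicates. The 2 arrays were nonetheless averaged and counted as 1 sample, which left 3 geriatric and 3 young samples. The labels leave unsaid whether a sample was 1 mouse or pooled mice, and the p-values therefore cover sample-to-sample spread only. In sorted bulk RNA, fewer cells with a transcript cannot be told apart from less of it per cell. The first row of the slide held the 3 young arrays and geriatric replicate 1, and the second row held geriatric arrays only, so each row-restricted value below rests on 1 geriatric array.

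Replication is licensed in G1, when the origin recognition complex, Cdc6 and Cdt1 load the Mcm2-7 helicase onto origins, and it fires in S phase when Cdc7 and Cdk2 activity recruits Cdc45 and the GINS complex to that helicase. D-type cyclins with Cdk4 and Cdk6, and then E-type cyclins with Cdk2, phosphorylate the retinoblastoma protein and release E2F factors, which drive many of the replication genes. Adult satellite cells are mostly quiescent in undamaged muscle and enter the cycle after injury, and loaded MCM complexes are commonly lost in quiescent cells.

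Because E2F factors are the textbook activators of this group, the promoter windows of RefSeq on GRCm38.p6, which run 250 bases upstream to 50 bases downstream of each annotated start, were searched on both strands for the E2F words TTTCCCGC, TTTCGCGC, TTTGCCGC and TTTGGCGC, and for CCAAT, the word bound by NF-Y. Windows were at hand for 33 of the 43 genes. An E2F word was present in 12 of the 33 (36.4%), against 704 of 27025 genes with a window (2.6%), and CCAAT was present in 60.6% of the 33, against 41.1% of all genes. The windows below belong to the 3 genes whose geriatric samples all lay below the young ones, and to Mcm6, the window with the most E2F words. Capitals mark E2F and CCAAT words, and 2 of the E2F words of Mcm6 overlap each other, while each sequence is written 5′ to 3′ on the strand of the gene.
Cdc6 promoter, chr11:98907901-98908200, plus strand: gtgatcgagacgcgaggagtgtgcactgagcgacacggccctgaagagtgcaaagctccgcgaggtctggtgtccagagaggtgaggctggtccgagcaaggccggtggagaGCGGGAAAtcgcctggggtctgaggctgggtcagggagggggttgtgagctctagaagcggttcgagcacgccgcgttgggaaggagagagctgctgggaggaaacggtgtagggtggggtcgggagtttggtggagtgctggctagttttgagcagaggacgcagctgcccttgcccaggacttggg
Mcm10 promoter, chr2:5012742-5013041, minus strand: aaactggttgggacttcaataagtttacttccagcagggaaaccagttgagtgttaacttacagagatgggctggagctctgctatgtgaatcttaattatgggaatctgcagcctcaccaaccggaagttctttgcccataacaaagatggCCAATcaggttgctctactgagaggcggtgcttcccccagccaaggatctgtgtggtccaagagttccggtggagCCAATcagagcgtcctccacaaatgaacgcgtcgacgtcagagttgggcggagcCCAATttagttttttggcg
Mcm2 promoter, chr6:88898731-88899030, minus strand: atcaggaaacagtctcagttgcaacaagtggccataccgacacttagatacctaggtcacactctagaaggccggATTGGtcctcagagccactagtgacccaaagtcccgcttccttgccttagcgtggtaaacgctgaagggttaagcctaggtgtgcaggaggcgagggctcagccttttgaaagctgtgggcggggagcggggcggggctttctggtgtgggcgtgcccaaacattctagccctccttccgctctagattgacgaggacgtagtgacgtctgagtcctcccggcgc
Mcm6 promoter, chr1:128359656-128359955, minus strand: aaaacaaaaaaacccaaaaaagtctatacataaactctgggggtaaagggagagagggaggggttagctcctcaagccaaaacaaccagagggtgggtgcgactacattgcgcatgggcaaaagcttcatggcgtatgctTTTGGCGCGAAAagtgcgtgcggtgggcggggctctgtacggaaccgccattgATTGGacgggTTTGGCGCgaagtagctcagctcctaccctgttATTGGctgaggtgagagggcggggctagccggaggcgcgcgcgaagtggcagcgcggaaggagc
The gene with the opposite difference, Ccnd2, was read by 1 probe, the 60-base sequence below from mm9 chr6:127098696-127098755 on the minus strand.
Ccnd2 probe: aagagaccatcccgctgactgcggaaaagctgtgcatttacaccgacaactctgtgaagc
Counted from the start site, the E2F word of Cdc6 began at position −138, and those of Mcm6 at −110, −106 and −47. The Mcm10 and Mcm2 windows held CCAAT and no E2F word. The 12 genes with an E2F word had a median difference of −0.23, with 7 lower and 5 higher in geriatric cells, and the 20 tested genes without one had a median of −0.19, with 12 lower and 8 higher. Words in a window are a description, not sites shown to be bound.

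**Figure D1:**
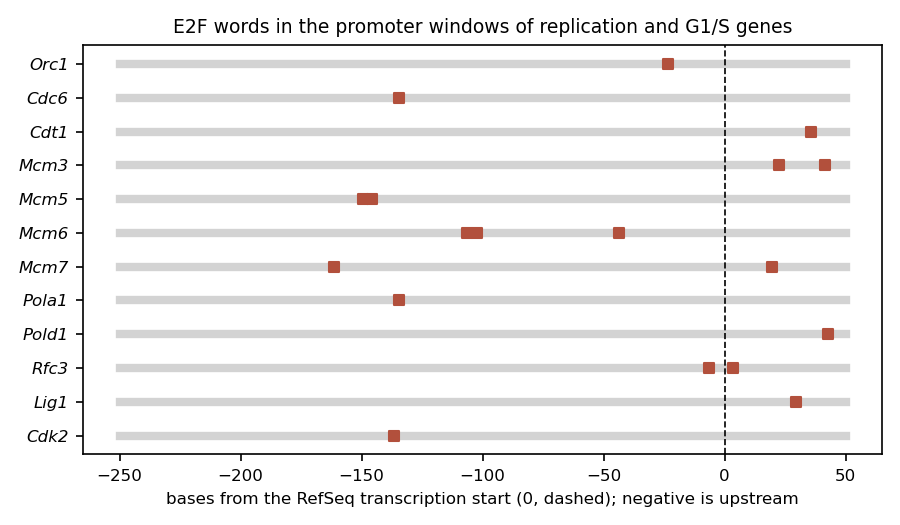
E2F words in the promoter windows of replication and G1/S genes, plotted as bases from the RefSeq start (dashed line), 1 row per gene. The words lie on both sides of the start, and Mcm6 holds the most.

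No gene of the group passed the test for a difference between geriatric and young cells. The test was limma with Benjamini-Hochberg adjustment over all 27390 features, which called 7 features (0.0256% of those tested), 3 of them higher (0.011%) and 4 lower (0.0146%) in geriatric cells. At an unadjusted p under 0.05, 4 of the 40 genes were reached, 1 higher and 3 lower in geriatric cells, where the same limit took 7.25% of all features, 4.39% higher and 2.86% lower. The same 4 genes were those whose geriatric and young samples did not overlap, against 12.8% of all features, 7.09% higher and 5.75% lower. Both counts stood close to the background. The median difference of the 40 genes was −0.19 log2 units, with 24 lower and 16 higher, against −0.0043 and 50.6% lower over all features. The sign of single genes was often not stable: it turned for 19 of the 40 when 1 replicate or the averaged sample was left out, and for 11 within the first slide row. The single differences ran over a range of −2.72 to 2.23, and the smallest adjusted p among the 40 was 0.174. The lowest difference, the smallest p and 2 of the 3 lower genes come from Cdc6 and Mcm10, which passed the filter on dim probes only through the young arrays. With only probes well above background on all 7 arrays, 2 of 37 genes had an unadjusted p under 0.05, and the smallest adjusted p by limma was 0.427. The share of all features under that filter is not given here, and with the main filter it was 7.25%.

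**Figure D2:**
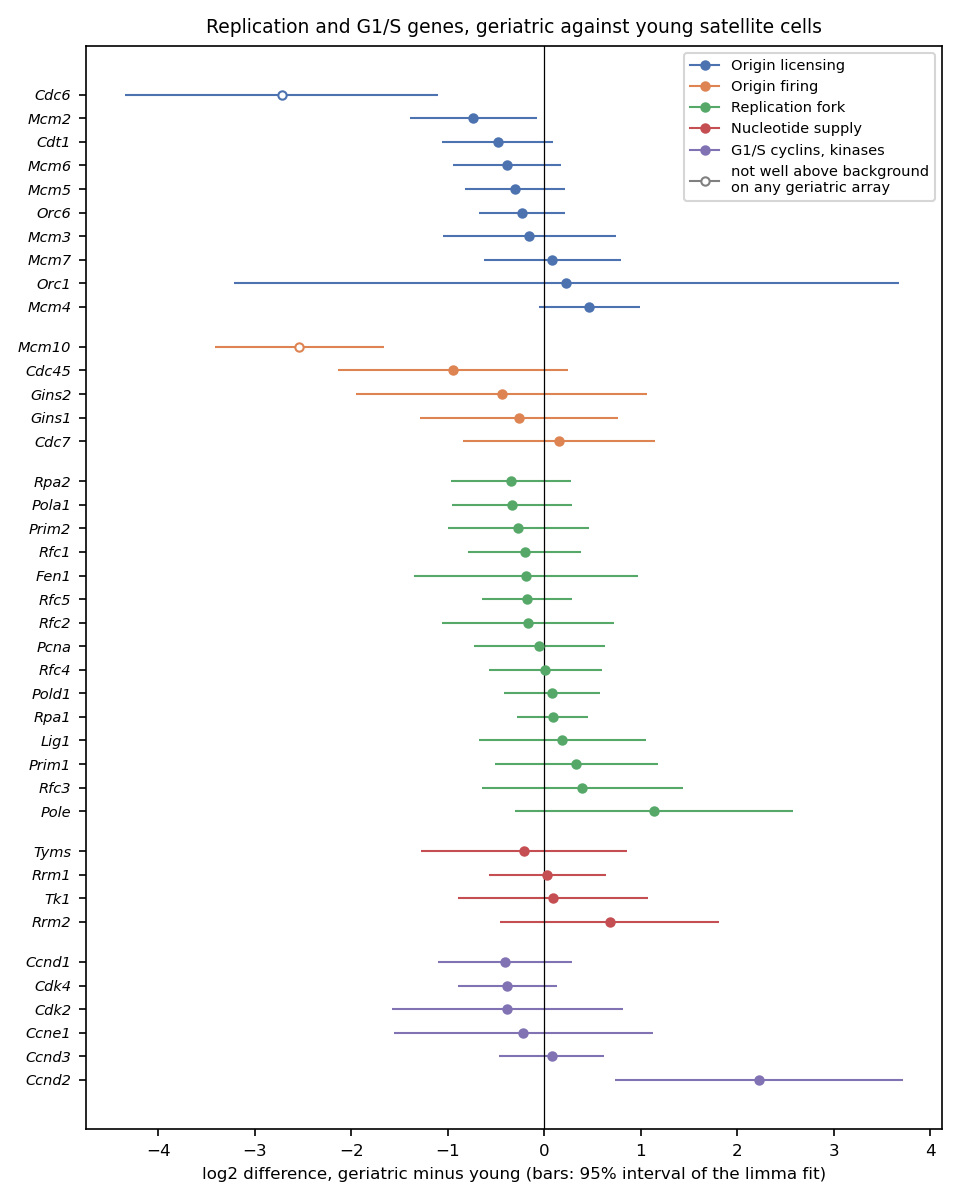
Log2 difference, geriatric minus young, of each of the 40 tested genes by role, with the 95% interval of the limma fit. Open symbols mark genes not well above background on any geriatric array, Mcm10 and Cdc6 lie lowest, and Ccnd2 lies highest at 2.23.

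The genes had a median within-group SD of 0.43 log2 units, against 0.36 for all features. The 95% interval lay inside 1 log2 unit either way for 17 of the 40 genes (42.5%), and for 52.5% of all features. For the other genes it reached past 1 log2 unit in at least 1 direction. The 2 arrays of the shared sample name differed by a median of 0.0527 log2 units over the probes of these genes, and other array pairs by 0.31 to 0.638.

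Among licensing factors, Cdc6, which loads the MCM helicase with Cdt1, was not well above background on any of the 4 geriatric arrays and was above it on all 3 young arrays. Its log2 signal relative to the array's 75th percentile was −7.97 in averaged geriatric replicates 1 and 2, −7.33 in replicate 3 and −7.70 in replicate 4, against −3.43, −5.76 and −5.64 in young replicates 1 to 3. Young replicate 1 lay well above the others of its group. No geriatric sample reached a young one, but every geriatric value was below detection. The geriatric spread, and the difference, SE and p that follow, rest on those values. The geriatric mean was −7.67 ± 0.32 and the young mean −4.94 ± 1.31 (SD, n = 3 each), a difference of −2.72 (SE 0.66), and the level was at least 1.38-fold lower in geriatric cells, a bound set by the detection limit of the arrays (limma, adjusted p = 0.412). The bound uses the young mean, which young replicate 1 raised, and without that replicate the difference was −1.96. A second Cdc6 probe, 2124 bases away, was well above background on no geriatric array and on 1 young array and was not tested. That probe read −7.77, −7.19 and −7.53 in geriatric samples, against −7.90, −7.16 and −5.04 in young samples. Its difference was −0.80, the groups overlapped, and it did not repeat the high value of young replicate 1.

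Mcm10, which joins the helicase at firing and is required for origin unwinding, had the smallest p of the group. Its log2 signal was −7.70, −7.23 and −6.70 in the geriatric samples, against −4.54, −4.29 and −5.20 in the young samples. No geriatric sample reached a young one, but every geriatric value was below detection. The geriatric spread, and the difference, SE, interval and p that follow, rest on those values. The geriatric mean was −7.21 ± 0.50 and the young mean −4.68 ± 0.47 (SD, n = 3 each), a difference of −2.54 (SE 0.36, 95% interval −3.41 to −1.66, unadjusted p = 0.000439, adjusted p = 0.174 by limma). It was well above background on 0 of 4 geriatric arrays and 3 of 3 young arrays, and its level was at least 1.67-fold lower in geriatric cells, by the same kind of bound. Both Mcm10 and Cdc6 entered the test only through the young arrays, so a difference was built into their detection. This pattern held for 2 of the 40 genes and for 83 of 27390 features (0.303%), and the reverse, all geriatric and no young arrays, for 0 and 29. With a normexp background correction the differences were smaller, −0.69 for Mcm10 (limma, adjusted p = 0.418) and −0.94 for Cdc6 (adjusted p = 0.546), and with the authors' values −0.78 and −1.03.

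Mcm2, a subunit of the Mcm2-7 helicase, was above background on every array. Its log2 signal was −1.25, −1.23 and −1.04 in the geriatric samples, against −0.87, −0.52 and 0.05 in the young samples. The geriatric samples lay together and below all young ones, of which young replicate 3 was highest. The means were −1.17 ± 0.11 in geriatric and −0.44 ± 0.47 in young cells (SD, n = 3 each), a difference of −0.73 (SE 0.27, unadjusted p = 0.0352, adjusted p = 0.640 by limma), and −0.48 without young replicate 3. Cdt1, the loading partner of Cdc6, had 0.38, −0.11 and 0.15 in geriatric samples, against 0.78, 0.26 and 0.82 in young samples, a difference of −0.48 (SE 0.24, limma adjusted p = 0.743). The Cdt1 groups overlapped.

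The remaining helicase and origin subunits had differences of both signs. Mcm4 gave the opposite sign, with 2.76, 2.76 and 2.28 in geriatric samples, against 1.97, 2.33 and 2.08 in young samples, a difference of 0.47 (SE 0.21, 95% interval −0.05 to 0.99, limma adjusted p = 0.720). Only geriatric replicate 4 overlapped the young range. Mcm3, Mcm5, Mcm6 and Mcm7 differed by −0.15, −0.30, −0.38 and 0.09. Orc6, an origin recognition subunit, differed by −0.23, and Orc1, an ATP-binding subunit related to Cdc6, by 0.23 with an SE of 1.40, since its values split widely in both groups: −3.54, −7.27 and −3.68 in geriatric samples, against −7.26, −3.30 and −4.63 in young samples. Over the licensing list, 7 of 10 tested genes were lower and 3 higher in geriatric cells (median −0.26), with none past the test. Gmnn, whose product geminin blocks Cdt1, was not tested: its brighter probe was well above background on 0 geriatric and 2 young arrays, with −6.43, −7.36 and −5.52 in geriatric and −4.84, −8.09 and −4.59 in young samples.

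**Figure D3:**
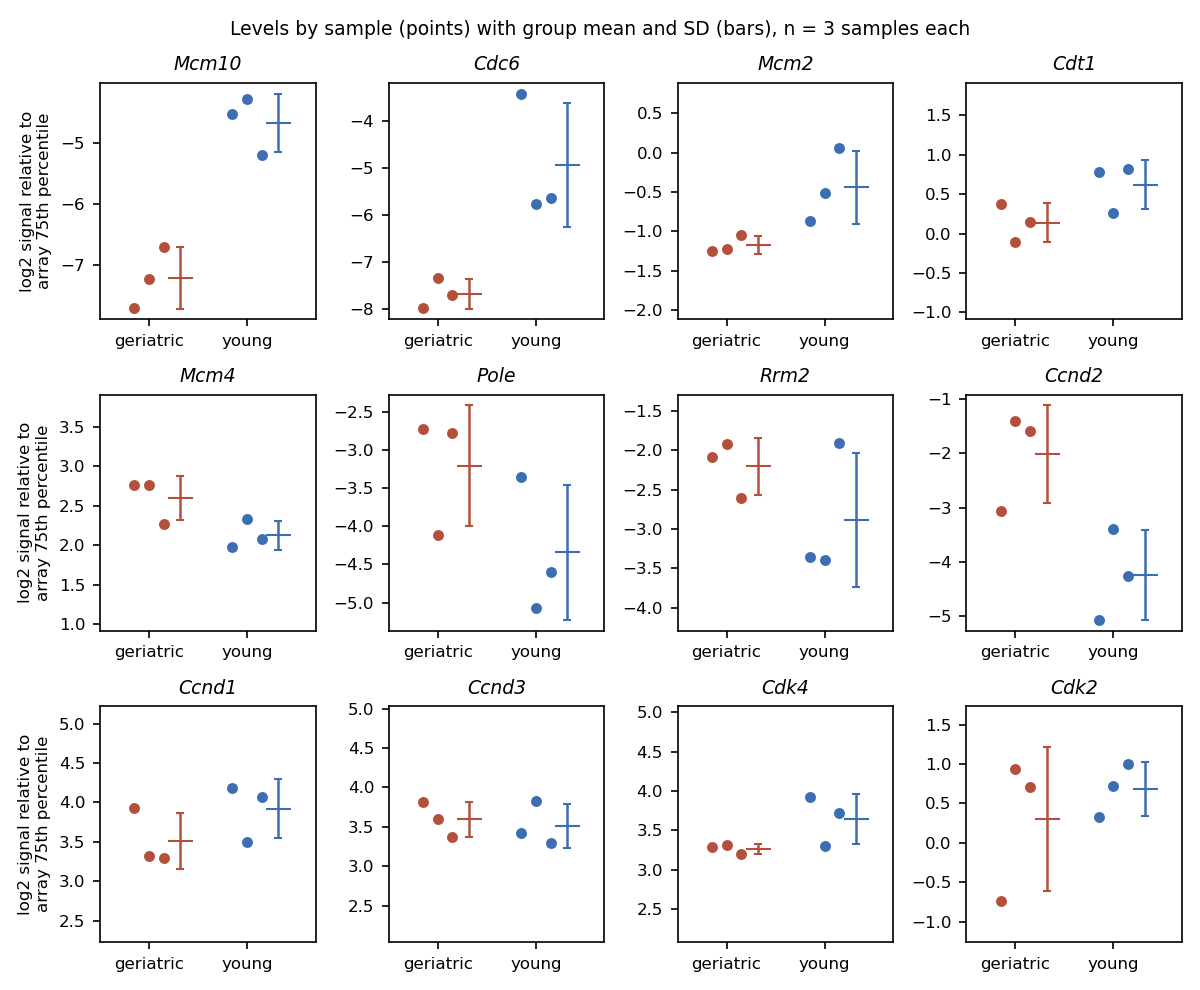
Log2 signal relative to the array 75th percentile in each sample, for 12 of the genes, with group means and SD bars (n = 3 samples each) and the geriatric group left of the young one. The groups stand apart in Mcm10, Cdc6, Mcm2 and Ccnd2 and overlap in the others. The geriatric values of Mcm10 and Cdc6 are below detection.

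Of the factors that fire origins, Cdc45, a helicase cofactor, differed by −0.94 (SE 0.48, limma adjusted p = 0.757). Its values were −2.48, −3.02 and −3.91 in geriatric samples, against −2.15, −2.86 and −1.57 in young samples, and the groups overlapped. Within the first row of the slide, which held geriatric replicate 1 and the 3 young arrays, the difference was −0.26, and without geriatric replicate 4 it was −0.56. The GINS subunits Gins1 and Gins2 differed by −0.26 and −0.44. Leaving out 1 sample moved Gins1 over −0.65 (without the averaged geriatric sample) to −0.04 (without geriatric replicate 4), and Gins2 over −0.92 (without young replicate 2) to 0.08 (without geriatric replicate 3), and within the first slide row they differed by 0.56 and 0.37. The Cdc7 kinase differed by 0.16 on its brighter probe and −0.70 on the other. Over the firing list, Mcm10 included, 4 of 5 were lower and 1 higher, with a median of −0.44.

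The fork genes code for polymerases, primase, the clamp and its loader, single-strand binding protein and the nuclease and ligase that finish the lagging strand. Of 15 tested, 8 were lower and 7 higher in geriatric cells, with a median of −0.05, and the groups overlapped for all 15 on the probe that read the gene. Pcna, the sliding clamp, differed by −0.05 (95% interval −0.73 to 0.63). Pole, the leading-strand polymerase, had the largest difference of this list, with −2.72, −4.12 and −2.77 in geriatric samples, against −3.35, −5.08 and −4.60 in young samples, a difference of 1.14 (SE 0.59, limma adjusted p = 0.758). Its 3 probes disagreed, at 1.14, 0.87 and −0.62, and the last, 46162 bases from the first, was annotated to another transcript accession. Rpa1, a subunit of the single-strand binding protein, gave 0.09 on its brighter probe and −0.52 on the other. On that dimmer probe the groups did not overlap, with −0.58, −0.65 and −0.61 in geriatric samples, against 0.00, 0.15 and −0.44 in young samples (limma, adjusted p = 0.681 over all tested probes). Pola1, Prim1, Prim2, Pold1 and Rpa2 differed by −0.33, 0.34, −0.27, 0.08 and −0.34. The clamp loader subunits Rfc1 to Rfc5 differed by −0.20, −0.17, 0.40, 0.01 and −0.18, the flap nuclease Fen1 by −0.19 and the ligase Lig1 by 0.19.

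The genes that supply deoxynucleotides had a median of 0.06, with 3 of 4 higher. Rrm2, the S-phase subunit of ribonucleotide reductase, had −2.09, −1.92 and −2.61 in geriatric samples, against −3.36, −3.40 and −1.91 in young samples, a difference of 0.68 (SE 0.46, limma adjusted p = 0.818). Young replicate 3 was level with the highest geriatric sample, and without it the difference was 1.17. Rrm1, the partner subunit, differed by 0.04, Tyms, which makes thymidylate, by −0.21, and Tk1, the thymidine kinase, by 0.09.

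**Figure D4:**
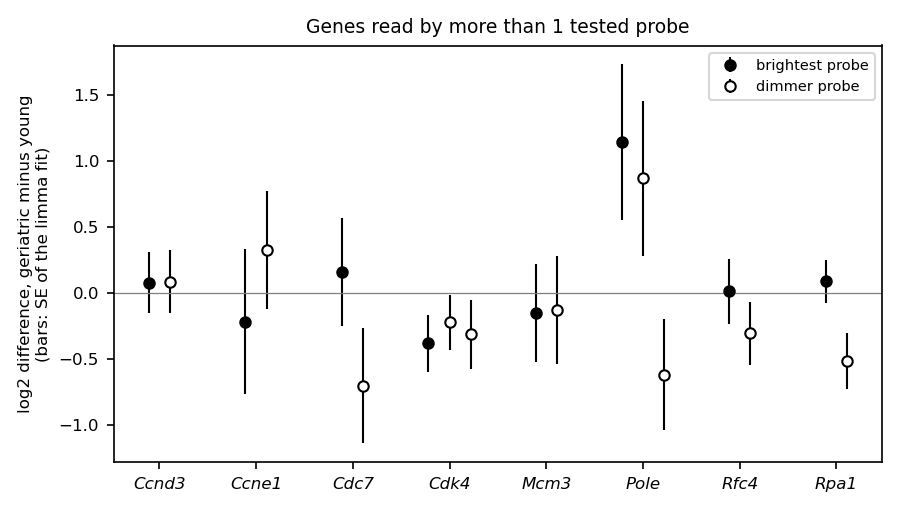
Log2 difference, geriatric minus young, with the SE of the limma fit, for the 8 genes read by more than 1 tested probe. Filled symbols are the brightest probe and open ones the dimmer, and 5 of the 8 have probes of both signs, Pole most widely.

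Of the G1/S cyclins and kinases, Ccnd2, a D-type cyclin, read higher in every geriatric sample than in any young sample, without passing the test. Its log2 signal was −3.06, −1.41 and −1.58 in the geriatric samples, against −5.07, −3.40 and −4.26 in the young samples, and no sample overlapped. The means were −2.02 ± 0.91 in geriatric and −4.25 ± 0.84 in young cells (SD, n = 3 each), a difference of 2.23, or 4.69-fold higher (SE 0.61, 95% interval 0.74 to 3.72, unadjusted p = 0.0108, adjusted p = 0.487 by limma). The difference was 1.54 with the normexp correction, 1.47 with the authors' values and 1.17 within the first slide row. Of 7 tested stromal markers, 6 had a higher mean in geriatric samples (median difference 1.10, none past the test), while Col1a1 differed by −0.01. The groups did not overlap for 2, Dpt and Mfap5, against 7.09% of all features in that direction. Ly6a and Lum were well above background on only 4 and 5 of the 7 arrays, and Pdgfra on none. The sum over 8 stromal genes was 7.99, 23.5 and 21.8 times the 75th percentile in geriatric samples, against 6.69, 7.11 and 4.41 in young. Dcn dominated the sum, with a log2 signal of 2.53, 4.35 and 4.29 in geriatric samples, against 2.45, 2.54 and 1.52 in young samples. The Dcn groups overlapped. The part of these markers in the Ccnd2 difference was not tested.

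Of the other D-type cyclins, Ccnd1 differed by −0.41 (SE 0.28, limma adjusted p = 0.827) and Ccnd3 by 0.08 (SE 0.22, 95% interval −0.46 to 0.62, adjusted p = 0.965). Ccnd1 had 3.92, 3.32 and 3.29 in geriatric samples, against 4.19, 3.49 and 4.07 in young samples. Ccnd3 had 3.81, 3.60 and 3.37 in geriatric samples, against 3.42, 3.83 and 3.29 in young samples. Cdk4, their kinase, had 3.29, 3.32 and 3.20 in geriatric samples, against 3.92, 3.30 and 3.72 in young samples, a difference of −0.38 (SE 0.21, limma adjusted p = 0.769), and its 3 probes gave −0.38, −0.22 and −0.31. The Ccnd1, Ccnd3 and Cdk4 groups overlapped. Cdk2, the E-type cyclin kinase, had −0.74, 0.94 and 0.71 in geriatric samples, against 0.33, 0.72 and 1.00 in young samples (difference −0.38, SE 0.49, limma adjusted p = 0.914). That difference rested on the averaged geriatric sample: it was 0.14 without it, and −1.45 within the first slide row. Ccne1, an E-type cyclin, had −2.36, −4.08 and −4.04 in geriatric samples, against −3.11, −2.88 and −3.84 in young samples (difference −0.22, SE 0.55, limma adjusted p = 0.960). Its direction was not stable: the difference was −0.78 without the averaged geriatric sample, 0.08 without geriatric replicate 3 and 0.93 within the first slide row, and the other tested probe gave 0.32. Ccne2, the other E-type cyclin, was well above background on no array, and Cdk6, the Cdk4 paralog, on 1 young array and no geriatric array, so neither was tested. Ccne2 read −7.90, −7.31 and −7.54 in geriatric samples, against −8.13, −8.10 and −8.30 in young samples, all below detection. Cdk6 read −7.83, −5.86 and −7.65 in geriatric samples, against −5.35, −8.01 and −7.15 in young samples.

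Over the 6 samples, the medians of the 40 genes overlapped between the ages. The median deviation from each gene's mean over the samples was 0.0031 in averaged geriatric replicates 1 and 2, −0.14 in replicate 3 and −0.19 in replicate 4, against 0.03, −0.04 and 0.27 in young replicates 1 to 3. Geriatric replicate 3 and young replicate 3 were each the highest sample for 11 of the 40 genes (27.5%). Geriatric replicate 4 was the highest for none and the lowest for 12 (30%). Over all features, geriatric replicate 3 was highest for 16.3%, young replicate 3 for 14.7% and geriatric replicate 4 for 18.4%. Geriatric replicate 4 was lowest for 14.5% of all features. Of the 10 licensing genes, 7 were highest in young replicate 3. Young replicate 3 and geriatric replicate 4 also had the extreme medians of the 7 tested mitotic markers. The median deviation was 0.55, 0.03 and −1.02 in the geriatric samples, against 0.16, −0.24 and 1.36 in the young samples. Summed over 10 mitotic markers, the level was 1.37, 0.89 and 0.76, against 1.04, 0.91 and 2.13 times the 75th percentile. Single markers differed: young replicate 3 was highest for 4 of the 7, and geriatric replicate 4 was lowest for 3. Plk1 read higher in every geriatric sample than in any young one (difference 1.02). Mki67 went the other way, lower in every geriatric sample than in any young one (difference −1.05), and neither passed the test. Cdk1 was highest in geriatric replicate 4. For other cell types, geriatric replicate 4 was the highest sample for 4 of 6 tested endothelial markers (median deviation 1.01). Of these 4, Pecam1, Egfl7 and Emcn were well above background on only 3, 5 and 6 of the 7 arrays. Tek, the brightest endothelial marker, was highest in averaged geriatric replicates 1 and 2, and Cldn5 in young replicate 3. Geriatric replicate 4 was also the highest for 5 of 6 tested leukocyte markers (median deviation 0.48). The part of cycling cells or of other cell types in the deviations was not tested. Without young replicate 3 the median difference of the 40 genes was −0.08, and without geriatric replicate 4 also −0.08. It was −0.11 without geriatric replicate 3 and −0.06 within the first slide row.

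**Figure D5:**
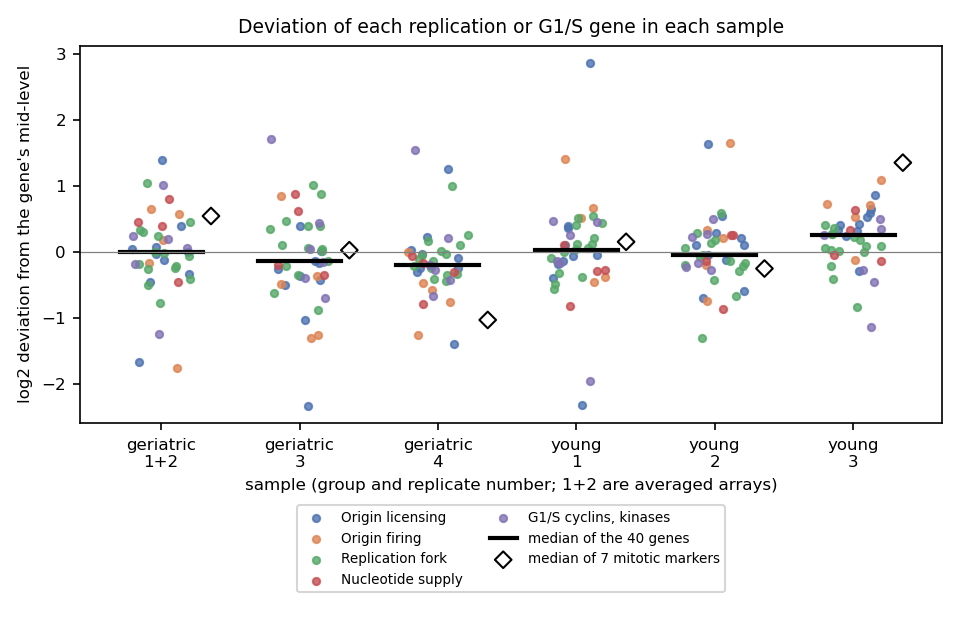
Log2 deviation of each of the 40 genes from its mean, by sample, coloured by role, with the median of the 40 as a bar and the median of 7 mitotic markers as an open diamond. Geriatric replicate 4 has the lowest medians and young replicate 3 the highest.

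Of 42 further replication genes tested, 18 were higher and 24 lower in geriatric cells (median −0.11), none passed the test, and 1 higher and 3 lower had an unadjusted p under 0.05, where 4.39% of all features were higher and 2.86% lower at that limit. Among those with the smallest p in each direction were Mcm8, a helicase of recombination, at 1.18 (SE 0.27, limma adjusted p = 0.383), and Gins4 at 0.34 (adjusted p = 0.761) on the higher side, and Cdc25a, the phosphatase that activates Cdk2, at −0.80 (SE 0.19, adjusted p = 0.407), Pole2 at −1.15 (SE 0.35, adjusted p = 0.555) and Pola2 at −0.73 (SE 0.27, adjusted p = 0.651) on the lower side. Cdc25a was −0.70, −0.96 and −0.46 in geriatric samples, against 0.22, −0.03 and 0.10 in young samples, and Mcm8 was −1.74, −2.22 and −1.92 in geriatric samples, against −3.26, −2.65 and −3.49 in young samples. In both, and in Gins4, Pole2 and Pola2, the groups did not overlap. Of the 42, 2 higher and 4 lower did not overlap, against 7.09% and 5.75% of all features.

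The identity of the cells was checked against 10 satellite cell markers. All were well above background on all 7 arrays, and none passed the test. By group mean, 5 were higher and 5 lower in geriatric samples (median −0.05), from −0.44 for Itga7 to 0.33 for Sdc4. Pax7, the defining transcription factor, differed by 0.03, Myod1 by −0.39 and Itga7, which codes for the integrin used in the sort, by −0.44, with all geriatric samples of Itga7 below the young ones (limma, adjusted p = 0.702). Summed satellite marker levels were 118, 111 and 119 times the 75th percentile in the geriatric samples, against 122, 134 and 108 in the young samples. Endothelial markers, dominated by Tek, summed to 11.9, 8.39 and 10.4 in geriatric and 9.35, 9.51 and 7.60 in young samples. Leukocyte markers, dominated by Itgam, summed to between 95.4 and 113 in geriatric and between 90.2 and 100.2 in young samples, with Lyz2 and C1qa among those well above background on no array. Of the antigens the sort removed, Itgam (CD11b) and Ptprc (CD45) were well above background on all 7 arrays, Ly6a (Sca1) on 4 and Pecam1 (CD31) on 3.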

How the data were processed

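Feature Extraction quantified the deposited spot intensity values (version 10.7.3.1, array design 028005, mm9 coordinates), per the file headers. The processed signal has background subtracted and is detrended within each array. The authors' value table holds log2 values with a median of 8.02 in every column, not centred by gene. Its background correction is unknown here, but on each array its values correlated at 0.9995 to 0.9998 with log2 of the raw mean signal. Signals were set on log2 minus each array's 75th percentile, outlier spots were left out, and each gene was read by its brightest probe among those well above background on at least 3 of 7 arrays. Folds for probes below background in a whole group are bounds, set by the dimmest probe that was well above background on each array. Tests were limma 3.58.1 in R 4.3.3 (lmFit, eBayes, two-sided, Benjamini-Hochberg over all features, adjusted p of 0.05), also tested on simulated data. Array values are limited in precision by the number of arrays. Alternatives were normexp on the raw mean signals with an offset of 50, quantile normalization, the authors' log2 values, other filters, the mean of probes, 4 geriatric samples, slide row and replicate block, and leaving out each replicate. Genes were named where groups did not overlap, where the p was among the 4 smallest in each direction, where a G1/S gene was tested, or where detection or probes disagreed. Of the further replication genes, those with the 3 smallest p in each direction were to be named, and some items of the lists are not reported here. Members and lists were chosen with earlier results of these data known. All arrays share 1 slide and 1 scan date, and slide row 2 held geriatric arrays only. Plots were made in Python 3.11.15 (matplotlib 3.10.9).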

Additional observations from a re-analysis of the deposited data

How the results depend on the processing

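No gene of the group passed under any of the alternatives, and its smallest adjusted p by limma ran over 0.0515 to 0.427, the lowest for Mcm10 with geriatric replicates 1 and 2 counted as 2 samples. The median difference kept its sign throughout, and ran over −0.20 to −0.08 when replicates were left out in turn, with −0.11 without geriatric replicate 3 and −0.08 without geriatric replicate 4 or young replicate 3. The sign of the difference turned for 19 of the 40 genes when replicates were left out in turn. The slide row block gave −0.06. This was the same estimate as within slide row 1, not a second check, since row 2 held no young array. The count over all features moved more: 4 under normexp, 4 with the authors' values, 2 with the filter on all 7 arrays, 64 with 4 geriatric samples, 0 with the slide row block, 3 within row 1 and 0 with the replicate block, against 7. Leaving out replicates gave 0 to 8. Cause was not tested. Deviations of same-numbered young and geriatric arrays correlated at −0.04, 0.06 and 0.01, and those of differently numbered arrays at −0.10 to 0.07. Same-numbered arrays were thus no more alike, but so few values cannot exclude a pairing by replicate number. With the replicate block 0 genes of the group passed, and its median was −0.06. Depth here means signal over background: Mcm10, Cdc6, Gmnn, Ccne2 and Cdk6 had no array well above background in the geriatric group on the probe used, so their geriatric levels are bounds.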
